A study of Mus musculus with 8 samples.

Results

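The regions described here are stretches of open chromatin that separated the luminal from the basal-like tumor cells in the same direction in WT and in Lats1-CKO libraries. Open chromatin was mapped by ATAC-seq, in which the Tn5 transposase inserts sequencing adapters where DNA is free of nucleosomes, and a peak is a place where a library held more such insertions than its surroundings. The peaks of all 8 libraries were merged into 183173 regions. A region was called luminal when the libraries BM1, BM5 and BM7 had a peak in it and none of the 4 basal-like libraries had one, and basal-like when all 4 basal-like libraries (BM2, BM6, BM4 and BM8) had a peak and no luminal library had one. By this rule 332 regions were luminal, 0.181% of all regions, and 166 were basal-like, 0.0906% of all regions, so that 498 of 183173 regions are described.

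The cells came from cell lines derived from mouse mammary tumors driven by the polyomavirus middle T oncogene (PyMT), which all libraries carried, on the strain given as FBV/N. Cultures that were WT or carried a conditional deletion of the Hippo pathway kinase Lats1 in the epithelial compartment (Lats1-CKO) were sorted into EpCAM-high; CD49f-high (luminal) and EpCAM-low; CD49f-high (basal-like) cells and briefly expanded. Each of the 4 groups held 2 libraries. The luminal ones were BM1 with BM5 from WT and BM3 with BM7 from Lats1-CKO cultures, and the basal-like ones were BM2 with BM6 from WT and BM4 with BM8 from Lats1-CKO cultures. The study calls them biological replicates, and whether the 2 libraries of a group came from separate cell lines is not stated in the labels, so p-values measure only the spread between these libraries.

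Luminal cells line the ducts and alveoli of the mammary gland and basal cells contract around them. Epithelial cells hold on to their identity through transcription factors such as GRHL2, ELF3 and ELF5, and lose it when repressors of the ZEB and SNAI families bind E-boxes in the promoters of epithelial genes, in the process known as epithelial-mesenchymal transition. The E-box that these repressors bind is CAGGTG, read as CACCTG on the other strand. Lats1 acts upstream of YAP and TAZ, which bind DNA through TEAD factors.

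The libraries differed in depth as far as the peak lists show it. They held 14753 (BM3) to 99022 (BM8) peaks, and the 7 libraries other than BM3 held at least 51497 (BM6). BM3 was not required for a luminal region because of its short list. The methods of the study state that a Lats1-CKO luminal replicate failed quality control and was dropped from the merged reads, without naming it, so results that use BM3 are also given without it. The EpCAM gate could be set beside the peaks at the gene, since Epcam, which encodes the adhesion molecule used for sorting, had a peak within 1 kb of a transcription start site (TSS) in every library but BM4 and BM8, the pair of basal-like libraries from Lats1-CKO cells. Of 25 luminal marker genes, 21 to 23 had such a peak in BM1, BM5 and BM7, 12 in BM3, 20 in BM2 and 11 to 14 in BM6, BM4 and BM8. Of 24 basal marker genes, 14 to 16 had one in the basal-like libraries, but 15 to 19 in BM1, BM5 and BM7, so that the basal markers were not more often at a peak behind the basal-like gate. Of 20 fibroblast markers, 6 had a peak in BM6, 8 in BM2, 10 in BM8 and 12 in BM4, and 3 to 6 in the luminal libraries. Endothelial markers (12 genes, 3 to 7 against 0 to 5) and immune markers (15 genes, 2 to 7 against 0 to 6) overlapped between the populations, and Ptprc, which defines leukocytes, had a peak in BM8 alone. The part of other cell types in the regions below was not tested. Fewer cells with an open site and less opening per cell cannot be told apart in such bulk libraries.

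Among the luminal regions with the highest peak scores were those at or near Pgs1, Anxa7 and Gpr37l1, and those at Pgs1 and Anxa7 held CAGGTG. Their sequences on the plus strand of GRCm38 are shown because the E-box in them is what set the luminal regions apart in the comparisons below. The regions at Crb3, Prss8, Elf3 and Elf5 were added for their known roles after their values had been seen. Crb3 encodes a polarity protein of the apical membrane, Prss8 the membrane protease prostasin of epithelia, Elf3 and Elf5 epithelial ETS factors. Capitals mark the E-box CAGGTG, its variant CAGGTA and the AP-1 motif TGANTCA on either strand, and the region at Anxa7 is cut to its central 300 bp.
Pgs1 (chr11:117998437-117998664): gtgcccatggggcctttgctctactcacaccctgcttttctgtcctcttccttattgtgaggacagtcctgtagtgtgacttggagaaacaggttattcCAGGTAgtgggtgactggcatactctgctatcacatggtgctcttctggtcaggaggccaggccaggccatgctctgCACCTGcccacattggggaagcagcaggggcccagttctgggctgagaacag
Anxa7 (chr14:20479854-20480153): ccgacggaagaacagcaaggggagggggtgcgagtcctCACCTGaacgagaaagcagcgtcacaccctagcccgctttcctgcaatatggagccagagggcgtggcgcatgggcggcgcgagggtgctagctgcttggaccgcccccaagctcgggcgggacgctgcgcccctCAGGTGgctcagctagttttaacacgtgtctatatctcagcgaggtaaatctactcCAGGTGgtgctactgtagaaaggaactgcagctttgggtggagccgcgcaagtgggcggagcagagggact
Gpr37l1 (chr1:135177926-135178114): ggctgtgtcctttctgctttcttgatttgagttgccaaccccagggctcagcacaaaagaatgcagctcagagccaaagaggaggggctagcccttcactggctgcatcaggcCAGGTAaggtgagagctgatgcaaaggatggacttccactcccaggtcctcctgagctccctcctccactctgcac
Crb3 (chr17:57062073-57062229): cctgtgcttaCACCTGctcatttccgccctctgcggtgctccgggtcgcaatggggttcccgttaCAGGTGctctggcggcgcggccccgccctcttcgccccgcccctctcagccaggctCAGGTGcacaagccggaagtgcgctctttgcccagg
Prss8 (chr7:127930037-127930185): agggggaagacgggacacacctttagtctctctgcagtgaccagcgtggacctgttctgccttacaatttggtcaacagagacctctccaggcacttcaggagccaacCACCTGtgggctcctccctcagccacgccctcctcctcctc
Elf3, nearest TSS Gm26642 (chr1:135248515-135248721): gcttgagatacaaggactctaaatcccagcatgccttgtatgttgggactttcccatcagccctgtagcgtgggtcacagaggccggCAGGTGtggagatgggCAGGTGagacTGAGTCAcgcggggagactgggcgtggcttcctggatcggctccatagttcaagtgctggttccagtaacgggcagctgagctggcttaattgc
Elf5 (chr2:103423973-103424109): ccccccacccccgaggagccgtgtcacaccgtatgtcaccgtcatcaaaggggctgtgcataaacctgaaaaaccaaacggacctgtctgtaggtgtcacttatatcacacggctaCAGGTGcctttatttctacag
The 157 bp at Crb3 held CAGGTG 3 times, the 300 bp at Anxa7 held it 3 times and the 207 bp near Elf3 held it 2 times. The window at Gpr37l1 held CAGGTA only. Of these 7 sequences 1, that at Elf3, held the AP-1 motif, which was found in 26.2% of all luminal regions.

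The 4 basal-like regions with the highest scores lay in an intron of Ebf1, near Mir5623, near Gm49414 and in an intron of Creb1. Their sequences are shown for this rank. None of them held CAGGTG or CAGGTA and each held the AP-1 motif 1 time. Over all basal-like regions AP-1 was found in the central 200 bp of 36.1%. It was found in 31.5% of regions with as many peaks in libraries of both populations, described below. The basal-like share ran from 25.5 to 50.6% with single libraries left out. The region in an intron of Zeb2, which encodes one of the E-box repressors, was added after its values had been seen, as one of the few basal-like regions with CAGGTG. The region near Gm49414 is cut to its central 300 bp.
Ebf1 (chr11:44812410-44812673): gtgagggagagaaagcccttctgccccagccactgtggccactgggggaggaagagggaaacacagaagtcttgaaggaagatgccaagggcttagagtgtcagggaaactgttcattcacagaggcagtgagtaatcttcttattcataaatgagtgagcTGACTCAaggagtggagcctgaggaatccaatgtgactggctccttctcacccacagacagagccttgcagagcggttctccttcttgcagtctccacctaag
Mir5623 (chr19:58044899-58045072): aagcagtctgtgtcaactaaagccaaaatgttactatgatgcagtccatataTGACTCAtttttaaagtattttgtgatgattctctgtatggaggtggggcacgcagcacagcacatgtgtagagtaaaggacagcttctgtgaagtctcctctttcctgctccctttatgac
Gm49414 (chr15:68606216-68606515): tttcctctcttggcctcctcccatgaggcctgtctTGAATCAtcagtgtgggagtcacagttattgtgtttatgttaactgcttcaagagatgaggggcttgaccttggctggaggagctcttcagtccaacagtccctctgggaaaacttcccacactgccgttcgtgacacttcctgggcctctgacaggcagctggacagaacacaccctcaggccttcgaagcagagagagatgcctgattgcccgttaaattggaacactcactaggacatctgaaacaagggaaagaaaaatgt
Creb1 (chr1:64551999-64552174): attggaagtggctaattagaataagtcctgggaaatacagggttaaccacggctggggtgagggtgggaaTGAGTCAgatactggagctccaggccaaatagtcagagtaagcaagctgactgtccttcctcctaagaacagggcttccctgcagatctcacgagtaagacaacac
Zeb2 (chr2:45085740-45085988): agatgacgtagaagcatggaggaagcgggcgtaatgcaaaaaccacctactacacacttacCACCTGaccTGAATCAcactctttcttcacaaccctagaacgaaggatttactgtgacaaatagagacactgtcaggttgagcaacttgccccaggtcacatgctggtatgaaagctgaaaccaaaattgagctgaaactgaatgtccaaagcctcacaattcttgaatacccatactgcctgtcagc

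The luminal regions were short and of modest score. Their median width was 178.5 bp (215 bp for the basal-like regions), and the median peak in them stood at percentile 34.5 of all peaks of BM1 by score, at 41.6 of BM5 and at 38.5 of BM7. The basal-like regions stood at a median percentile of 29.3 in BM2, 27.8 in BM6, 54.6 in BM4 and 38.3 in BM8. Most members thus came from below the median score of each peak list, with BM4 as the exception. To set these values beside a reference, mixed regions were taken that had a peak in the same number of libraries, BM3 aside, but of both populations. There were 14380 such regions with 3 peaks and 12326 with 4. The luminal regions scored slightly above their mixed regions in each of BM1, BM5 and BM7 (medians of 29.0, 36.7 and 35.4 in the mixed regions). The basal-like regions scored below theirs in BM2, BM6 and BM8 (38.8, 30.0 and 48.1) and above in BM4 (46.2). Across the members, the scores of 2 defining libraries ranked weakly alike, with Spearman's rho of 0.13 to 0.20 over the 332 luminal and 0.0046 to 0.26 over the 166 basal-like regions.

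**Figure D1:**
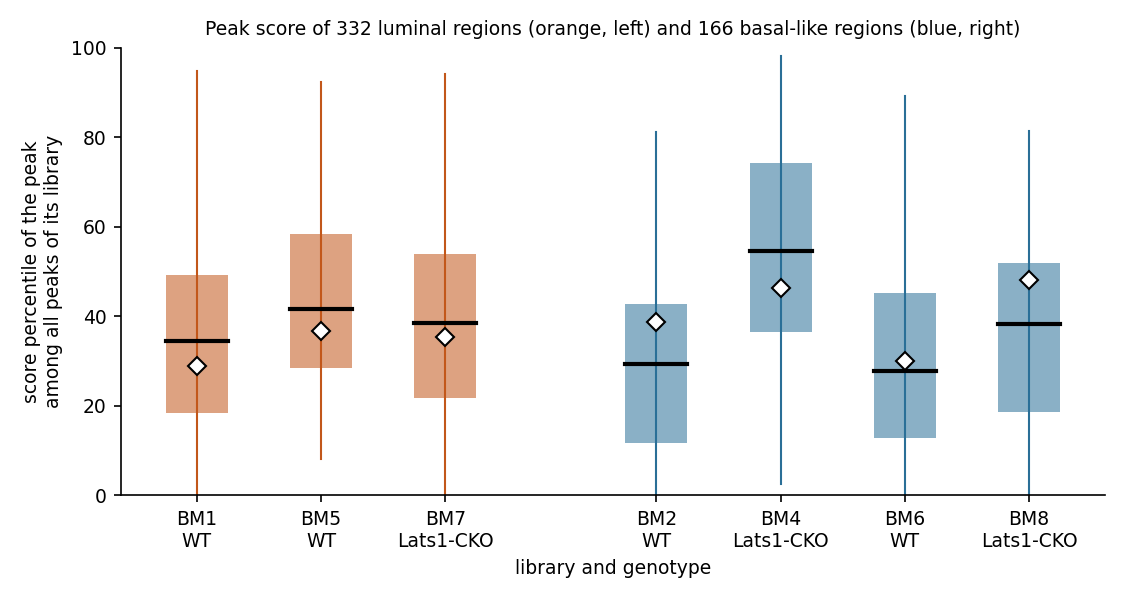
Score percentile of the peaks in the 332 luminal regions (left, orange, in BM1, BM5 and BM7) and the 166 basal-like regions (right, blue, in BM2, BM4, BM6 and BM8) among all peaks of the same library. Boxes span the quartiles, black bars the median and thin lines the range, and open diamonds give the median of the mixed regions; BM4 has the highest median, 54.6, and BM6 the lowest, 27.8.

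Read against the regions with as many peaks, the members were few as well. The luminal regions made up 2.05% of the 16196 regions with a peak in exactly 3 of the 7 libraries other than BM3, and the basal-like regions 1.33% of the 12494 with a peak in exactly 4. Just outside the rule lay 2863 regions with 2 of the 3 luminal peaks and no basal-like peak, in 1811 of which BM5 was the missing library, and 1736 regions with all 3 luminal peaks and 1 basal-like peak. On the other side lay 1484 regions with 3 of 4 basal-like peaks and none in BM1, BM5 and BM7, in 824 of which BM6 was missing, and 1181 with 4 basal-like peaks and 1 luminal peak. Leaving out BM5 raised the luminal regions from 332 to 2140, and leaving out BM2, a basal-like library, raised them to 1582. Leaving out BM1 gave 835, BM7 892 and BM8 657. The basal-like regions rose from 166 to 987 without BM6, to 938 without BM7, to 543 without BM2, to 469 without BM1, to 369 without BM8 and to 255 without BM5. Both counts thus moved with single libraries of either population.

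BM3, the library with few peaks, was not used to choose the luminal regions. It had a peak in 13 of the 332 (3.92%, 95% exact interval 2.101 to 6.60) against 0.960% of the mixed regions with 3 peaks. With BM3 set aside in the rule, it had a peak in 2 of 168 basal-like regions (1.19%, 0.144 to 4.23) against 2.50% of the mixed regions with 4 peaks. The intervals cover counting error only, and regions are not replicates. The 13 included the promoters of Crb3 (percentile 57.3 in BM3), Myh14, which encodes a nonmuscle myosin of epithelia (34.9), and Anxa7 (13.9), and an intron of Tmtc2 (83.5). CAGGTG was found in 9 of the 13 (69.2%, 38.6 to 90.9).

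The question behind the rule was whether a region that separated the populations in WT libraries did so in Lats1-CKO libraries too. Of 2141 regions with luminal order in WT (peaks in BM1 and BM5, none in BM2 and BM6), 332 (15.5%, 14.0 to 17.1) had luminal order in Lats1-CKO, that is, a peak in BM7 and none in BM4 and BM8. The opposite order was found in 129 (6.03%, 5.05 to 7.12), so same order was 2.57 times as common as opposite order. Among the 15537 regions with a peak in 1 luminal and 1 basal-like WT library, 1864 (12.0%) had luminal and 1137 (7.32%) basal-like order in Lats1-CKO, a ratio of 1.64 in regions that had no order in WT. Of 1895 regions with basal-like order in WT, 168 (8.87%, 7.62 to 10.24) had basal-like order in Lats1-CKO (peaks in BM4 and BM8, none in BM7) and 101 (5.33%, 4.36 to 6.44) the opposite one, a ratio of 1.66 where the mixed regions gave 0.610. Of these 168, 2 had a peak in BM3, which leaves the 166 basal-like regions. Most regions of either WT order had neither order in Lats1-CKO, 78.5% of those with luminal and 85.8% of those with basal-like order. The same held for 80.7% of the regions with a peak in 1 luminal and 1 basal-like WT library. The luminal ratio stayed between 1.51 and 3.53 with single libraries left out. The basal-like ratio fell to 0.992 without BM1, 0.956 without BM4 and 0.922 without BM6, and to 1.02 without BM2 and 1.03 without BM8. Same order was thus about as common as opposite order without any 1 of these 5 libraries. These ratios still lay above the 0.610 of the mixed regions, and the lowest luminal ratio, 1.51, lay below their 1.64. The mixed ratios were not computed again with a library left out, so neither range has its own reference.

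**Figure D2:**
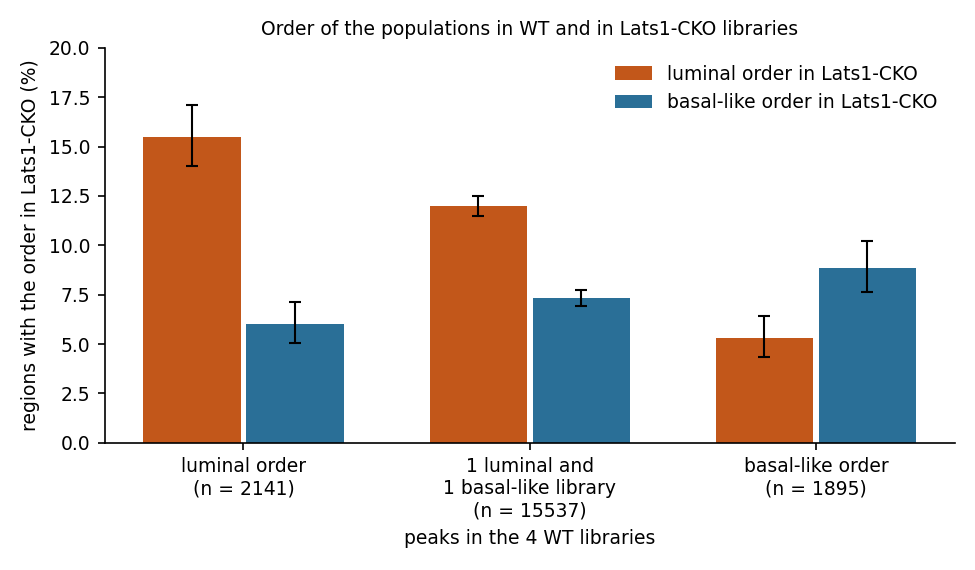
Share of regions with luminal order (orange) or basal-like order (blue) in the Lats1-CKO libraries, by their order in the 4 WT libraries; error bars are 95% exact binomial intervals over regions. The luminal order in WT was followed by luminal order in 15.5% and by the opposite order in 6.03%, and the basal-like order in WT by basal-like order in 8.87% and by the opposite in 5.33%.

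The E-box CAGGTG was the sequence feature that the luminal regions shared most. It was searched on both strands in the central 200 bp of every region, and the rule did not use it. It was found in 147 of 332 luminal regions (44.3%, 38.9 to 49.8), in 15.7% of the mixed regions with 3 peaks and in 13.6% of all 183173 regions. In the basal-like regions it was scarce, with 9 of 166 (5.42%, 2.51 to 10.04) against 16.6% of the mixed regions with 4 peaks. Among all 2080 words of 6 bases, each counted with its reverse complement, CAGGTG had the highest share in luminal over mixed regions, by 28.6 percentage points, and the lowest in basal-like against mixed regions, where it fell by 11.1 percentage points. The SD of this difference over all words was 2.20 points for the luminal and 2.31 points for the basal-like regions. The scan of all words was added after the first motif results had been seen. The related word CAGGTA was found in 25.9% of luminal and 8.23% of mixed regions, and in 3.01% of basal-like and 8.40% of mixed regions. At least 1 of both words was present in 201 luminal regions (60.5%) and in 13 basal-like regions (7.83%). Apart from CAGGTA itself, the word ACAGGT came next among the luminal regions, followed by the word ACACCT and then by ACCTGG, and all can overlap these E-boxes.

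Median GC content of the central 200 bp lay between 49.0% and 50.5% in all kinds of region. Within regions of 45 to 55% GC content, CAGGTG was found in 44.2% of luminal and 4.12% of basal-like regions. Luminal regions within 1 kb of a TSS held it in 26 of 68 cases (38.2%) and those farther away in 121 of 264 (45.8%), where the mixed regions gave 17.4% and 15.3%. Split by their smallest score percentile, the 165 regions with higher scores held it in 47.9% and the other 167 in 40.7%. Of the 147 luminal regions with CAGGTG, 36 held it 2 or more times, and the nearest copy lay a median of 35 bp from the centre (41 bp in the mixed regions). With each library left out in turn the share of luminal regions with CAGGTG stayed between 33.6% and 45.1%, and that of basal-like regions between 5.36% and 8.94%.

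The share of CAGGTG followed the number of libraries in each population also outside the members. Among regions with a peak in BM1, BM5 and BM7 it was 44.3% with no basal-like peak, 39.8% with 1, 28.7% with 2, 17.9% with 3 and 12.7% with all 4. Among regions with no peak in these 3 libraries it lay between 5.36% and 8.41% for 1 to 4 basal-like peaks. The 1736 regions with 3 luminal peaks and 1 basal-like peak, which the rule had left out, thus differed from the luminal regions by less than the counting interval of the latter. Split by genotype, regions that were mixed in WT held CAGGTG in 31.2% where the Lats1-CKO libraries had luminal order and in 7.83% where they had basal-like order. Regions with opposite orders in WT and Lats1-CKO held it in 15.5% (luminal in WT) and 18.8% (basal-like in WT).

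**Figure D3:**
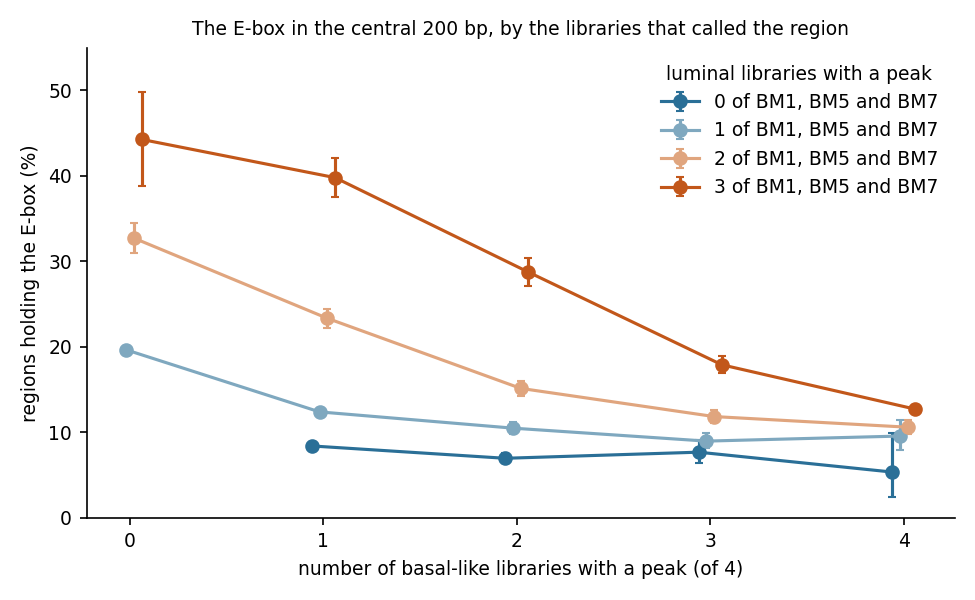
Share of regions with the E-box CAGGTG in their central 200 bp (vertical axis, percent) by the number of basal-like libraries with a peak (horizontal axis) and the number of BM1, BM5 and BM7 with a peak (lines); bars are 95% exact binomial intervals. The luminal regions are the top left point, 44.3%, and the line falls to 12.7% where all 7 libraries had a peak.

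The libraries were then compared on regions that were not members. These still held the regions just outside the rule, such as the 1736 with 3 luminal peaks and 1 basal-like peak (39.8% with CAGGTG). The same peak calls set the members apart, so the comparison is not independent of the rule. Among non-member regions over 1 kb from a TSS, CAGGTG was found in 18.1% of those of BM1, 17.2% of BM5, 17.6% of BM3 and 15.4% of BM7. It was found in 16.2% of those of BM2, 14.3% of BM6, 9.94% of BM4 and 10.3% of BM8. Both Lats1-CKO basal-like libraries were lower than all others, and within each genotype the luminal libraries lay above the basal-like ones without overlap, although BM2 (WT basal-like) lay above BM7 (Lats1-CKO luminal). The means were 17.1% ± 1.17 (SD, n = 4) and 12.7% ± 3.06 (SD, n = 4), a difference of 4.44 percentage points, which did not pass the two-sided exact permutation test over libraries (p = 0.057, where 0.029 is the smallest p that 4 against 4 allows). With peaks above the median score of their library alone the difference was 5.58 points (exact permutation p = 0.029), and without BM3 it was 4.27 points with members and merging left as they were (exact permutation p = 0.11). With 2 libraries against 2 within a genotype the smallest possible p is 0.33. The comparison was chosen after the E-box shares of the members had been seen, and Epcam and fibroblast marker peaks, given above, differed between the same libraries.

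**Figure D4:**
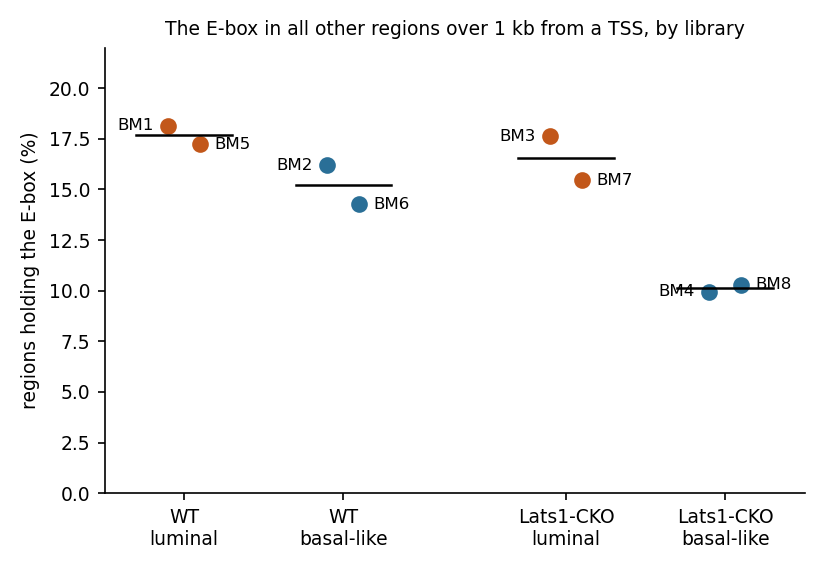
Share of non-member regions over 1 kb from a TSS that hold the E-box CAGGTG (vertical axis, percent), 1 point per library with its name, by group; horizontal lines are group means. Shares run from 9.94% in BM4 to 18.1% in BM1, and in each genotype both luminal libraries lie above both basal-like ones.

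Of the other motifs, none moved as far from the mixed regions. In the luminal regions AP-1 (TGANTCA) was found in 26.2% against 30.1%, the other E-box CAGCTG in 9.94% against 14.7%, STAT (TTCNNNGAA) in 3.31% against 6.49% and the nuclear receptor motif AGGTCA, which estrogen receptors bind in pairs, in 16.3% against 13.3%. The basal-like regions held AGGTCA in 18.7% against 13.9% and CAGCTG in 18.1% against 14.5%. KLF/SP (GGGCGG) was found in 11.4% of luminal regions against 8.62% and in 6.02% of basal-like regions against 9.97%, and NFY (CCAAT) in 26.2% of luminal regions against 23.7%. Over all 183173 regions AP-1 was found in 26.1% and KLF/SP in 10.6%, so the luminal shares of both were close to those of all regions. The luminal shares of CAGCTG and STAT lay below those of all regions too (13.8% and 6.03%). Those of AGGTCA and NFY lay above them (13.6% and 23.7%). The basal-like regions held ETS (AGGAAG) in 33.7% against 26.0%, AP-1 in 36.1% against 31.5%, C/EBP (TTGCNNAA) in 16.3% against 9.90%, GATA, searched as AGATAA, in 8.43% against 4.97% and STAT in 9.04% against 6.04%. SOX (AACAAT) was found in 4.82% of them against 9.31%. TEAD (GGAATG), through which YAP and TAZ act, was found in 15.4% of luminal regions against 16.9% and 18.1% of basal-like regions against 17.1%. RUNX (TGTGGT) was likewise near its reference, at 22.6% against 22.9% and 22.9% against 23.1%. FOX (TGTTTAC) was found in 2.41% against 3.12% and 4.82% against 3.37%, NFI (TTGGCA) in 17.2% against 19.2% and 18.1% against 18.01%, and the long GRHL motif (AACCNGGTT) in 1 luminal and 0 basal-like regions. Several of these shares turned on single libraries. AP-1 rose in luminal regions to 41.3% without BM2 and fell to 19.3% without BM5, and in basal-like regions it rose to 50.6% without BM6 and fell to 25.5% without BM7. In basal-like regions the share of GATA was 4.604% without BM2, that of C/EBP 10.1% without BM7, that of STAT 5.76% without BM1, that of SOX 10.03% without BM8, that of FOX 2.53% without BM6 and that of KLF/SP 11.9% without BM1, and in luminal regions that of STAT was 6.36% without BM5. Each of these was close to the share of its mixed regions with all libraries kept, or beyond it. The mixed shares of these motifs were not computed again with a library left out, so they have no matching reference. All these motifs were searched on both strands and a match does not show binding.

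**Figure D5:**
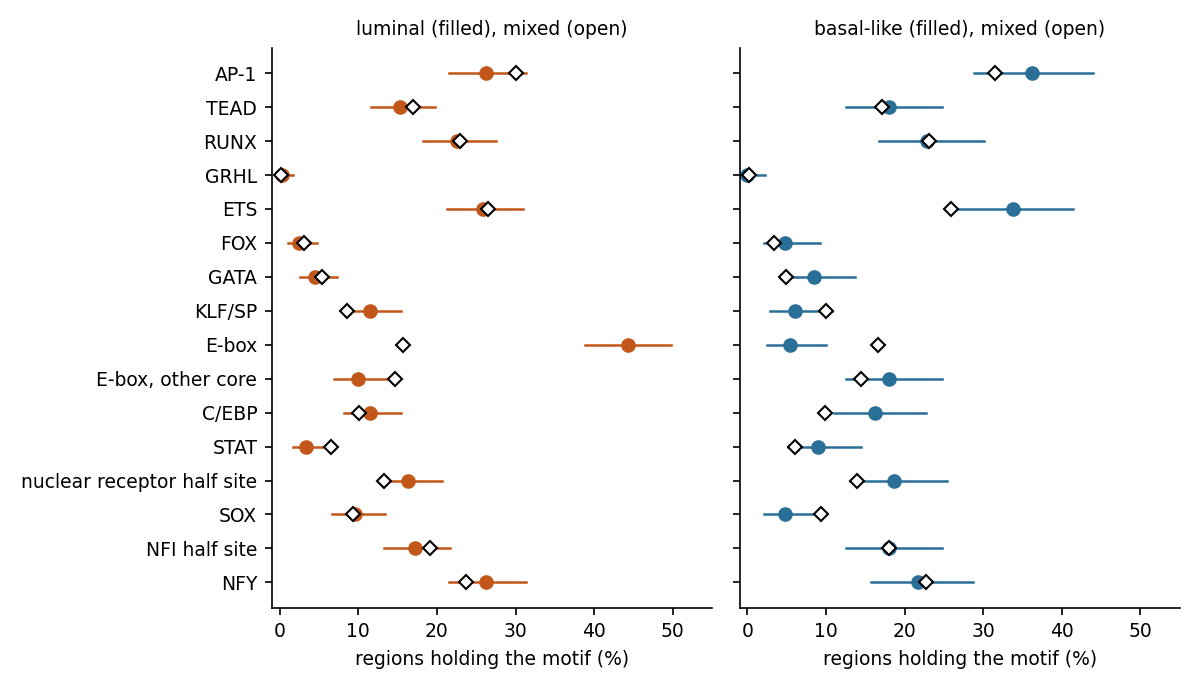
Share of luminal (left) and basal-like (right) regions that hold each of 16 motifs in their central 200 bp (filled, with 95% exact binomial intervals over regions) beside the mixed regions with as many peaks (open diamonds). The E-box CAGGTG, at 44.3% of luminal and 5.42% of basal-like regions, lies farthest from the mixed regions in both panels.

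Most members lay away from promoters. Within 1 kb of a TSS lay 68 of 332 luminal regions (20.5%, 16.3 to 25.2) and 34 of 166 basal-like regions (20.5%, 14.6 to 27.4), near the 17.6% and 18.6% of the mixed regions and the 19.0% of all regions. Introns held 37.3% and 44.0%, exons 7.23% and 2.41% and intergenic DNA 34.9% and 33.1%. Peaks above the median score moved the promoter shares apart, to 30.8% of luminal and 11.5% of basal-like regions. Members rarely clustered. None lay within 10 kb of another of its kind, 3 luminal regions lay within 10 kb of a basal-like one, and the genes with most regions, Med13l, Trpc4 and Gm38011 (luminal) and Tnk2, Gm48384 and Prickle2 (basal-like), had 2 each. Chromosome 19 held 13 basal-like regions (7.83% against 2.36% of the mixed regions).

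By the nearest TSS, luminal regions belonged to 329 genes (0.873% of the 37681 genes nearest to any region) and basal-like regions to 163 (0.433%). Of 16 lists of genes for mammary cell types and pathways, 285 genes were nearest to any region, of which 4 (1.40%) were nearest to a luminal and 5 (1.75%) to a basal-like region. The luminal 4 were Elf5, Wwc1, Tgfbi and Wnt7b, and the basal-like 5 were Acta2, Pdgfrb, Zeb2, Col5a1 and Tgfbr3. No gene of the lists for cell junctions, AP-1 factors, the estrogen response, immune or endothelial cells was the nearest gene of a member. Over protein-coding genes alone, Elf3 (with 2 regions), Klf5, Smad6, Inhba, Crim1 and Zeb2 were among those added on the luminal side and Foxa2, Cxcl12 and Id3 on the basal-like side, some of them at great distance (Zeb2 at 670668 bp, Crim1 at 954900 and 11482 bp, Inhba at 741849 bp). Of the nearest protein-coding genes, 8 had members of both kinds: Acsl1, Fblim1, Glul, Gpr132, Map3k6, Nfib, Usp12 and Zeb2.

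Among epithelial transcription factors the luminal regions included the promoter of Elf5 and a pair of sites near Elf3. At Elf5, which directs alveolar differentiation, the region (chr2:103423973-103424109) covered a TSS at percentiles of 6.57, 28.5 and 9.16 in BM1, BM5 and BM7, among the weakest of the members. The nearer region at Elf3 (chr1:135248515-135248721) lay 8928 bp from its TSS at percentiles of 59.8, 68.7 and 43.3, and the farther one 29986 bp away at 37.7, 8.20 and 19.5. All 3 regions held CAGGTG. The luminal region with Klf5 as its nearest protein-coding gene, 279584 bp away, held none in its central 200 bp.

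Examples of luminal regions at promoters were chosen for the known roles of their genes in polarity, membranes and vesicles, after their values had been seen, and do not show that such genes were favored. Of 27 listed cell junction genes, 0 were nearest to a luminal region, where the share over all genes was 0.873%. At Crb3 the peak stood at percentiles of 50.2, 36.7, 59.7 and 57.3 in BM1, BM5, BM7 and BM3, so that all 4 luminal libraries had it. At Prss8 it stood at 30.8, 83.6 and 46.5 in BM1, BM5 and BM7, at Myh14 at 53.6, 21.8 and 30.8, and at Stx19, which encodes a syntaxin of membrane fusion, at 63.8, 44.9 and 70.9. Each of these held CAGGTG. Exph5, which encodes a Rab27 effector of secretion (62.5, 75.4 and 22.9), and Dlg5, a scaffold of cell polarity (28.6, 19.3 and 21.3), had promoter regions without CAGGTG. Wnt7b, a Wnt ligand made by luminal cells, had a promoter region at 60.5, 83.0 and 22.9. Intron regions lay at Spint2, an inhibitor of Prss8-type proteases (31.8, 67.3 and 48.0), and at Bspry (36.6, 81.5 and 52.9). Further ones lay at Cdcp1 (47.3, 17.4 and 16.3) and at Trim29 (19.2, 8.20 and 3.11), the latter close to the lowest scores. A region over an exon lay at Map7, which binds microtubules (47.3, 28.5 and 39.6). Of the Hippo pathway, Wwc1, which encodes the upstream regulator KIBRA, had a region in an intron (34.5, 55.5 and 37.8) and Tead4 one in an intron (34.5, 20.4 and 10.5).

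The strongest luminal region of all lay in an intron of Pgs1, a mitochondrial phospholipid enzyme (78.1, 90.4 and 91.6), followed by the promoter of Anxa7, which encodes an annexin that binds membranes (79.7, 74.97 and 67.0). Also among the 10 strongest were Gpr37l1, Tank, Wfdc3, Itprid2, Mir130a, Nipal2 and Cachd1, with smallest percentiles of 55.7 to 61.6. Of the 9 regions named here, all but those at Gpr37l1, Tank and Wfdc3 held CAGGTG. The region near Mir130a lay 2354 bp from its TSS and that at Nipal2 covered the TSS with 3 copies of CAGGTG.

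The basal-like regions at promoters described here were likewise chosen for the roles of their genes after their values had been seen. They do not show that such genes were favored. Of 26 listed extracellular matrix genes that were nearest to any region, 1 (Col5a1) was nearest to a basal-like region, and of 27 cell junction genes 0 were, where the share over all genes was 0.433%. Col5a1, which encodes a fibrillar collagen chain, had a region over a TSS (chr2:27886228-27886484) at percentiles of 10.5 in BM2, 40.3 in BM6, 77.5 in BM4 and 33.0 in BM8. Pdgfrb, the PDGF receptor of fibroblasts and pericytes, had one of 544 bp at 22.3, 62.0, 89.9 and 49.7, and no luminal library had a peak at its TSS or up to 1 kb away. Of 19 listed fibroblast genes nearest to any region, it alone was nearest to a basal-like region. Other fibroblast markers had such peaks in luminal libraries too, Pdgfra in BM1, BM5 and BM7 and Col1a1 in BM1 and BM7. At Col5a1 and Pdgfrb the Lats1-CKO library BM4 stood highest and the WT library BM2 lowest. BM4 also had the highest median percentile over all basal-like regions, 54.6. Tgif1, a repressor of TGF-beta signaling, had a region over a TSS at 6.30, 41.5, 78.2 and 71.1 in the same order. Tln1, which links integrins to actin (18.9, 47.1, 47.3 and 53.8), Cd151, a tetraspanin of integrin complexes (21.3, 58.2, 25.03 and 53.6), Fblim1, an adhesion protein (1.69, 13.7, 52.9 and 4.05), and Prickle2, of planar cell polarity (5.28, 30.0, 54.6 and 53.2), had regions within 1 kb of a TSS. Fblim1 also had a luminal region, in an intron 1298 bp from a TSS, at 11.9, 53.2 and 55.7 in BM1, BM5 and BM7. Related genes had luminal regions too. In the same 3 libraries the promoter of Col4a4, another collagen gene, stood at 42.4, 41.6 and 35.4. An intron of Tln2, a relative of Tln1, stood at 25.3, 8.20 and 26.2. None of these 7 basal-like regions at promoters held CAGGTG.

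Away from promoters, a basal-like region lay 7125 bp from Acta2, the smooth muscle actin of myoepithelial cells and myofibroblasts, at 8.45, 57.01, 48.5 and 25.6 in BM2, BM6, BM4 and BM8. The region in an intron of Zeb2, 24088 bp from its TSS, stood at 1.69, 22.5, 79.1 and 18.5, close to the lowest score of BM2. A region in an intron of Tgfbr3, a TGF-beta co-receptor, stood at 49.995, 32.2, 91.2 and 5.16. Further regions, named after their values had been seen, lay in introns of Loxl1, which cross-links elastin (58.5, 16.4, 61.0 and 26.4), of Vcam1, an adhesion molecule (54.9, 22.5, 78.7 and 29.2), and of Fermt2, an integrin activator (67.0, 30.0, 53.9 and 43.6), and 2310 bp from Has1, a hyaluronan synthase (71.9, 4.48, 32.7 and 47.9). Of these 7 regions, that at Zeb2 held CAGGTG. BM4 was the highest of the 4 libraries at Zeb2, Tgfbr3, Loxl1 and Vcam1, and was not at Acta2, Fermt2 and Has1. Over all basal-like regions BM4 also had the highest median percentile, 54.6, against 29.3 in BM2, 27.8 in BM6 and 38.3 in BM8. In BM4, 12 of 20 fibroblast markers had a promoter peak (within 1 kb), and a part of this in its scores was not tested.

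The strongest basal-like region lay in an intron of Ebf1, a transcription factor of B cells and adipocyte precursors, at 64.2 in BM2, 50.5 in BM6, 88.2 in BM4 and 65.4 in BM8. The next, near Mir5623, stood between 48.9 and 51.8 in all 4 libraries. Gm49414 (45.6 to 97.8), Creb1, Gm7733, 2010007H06Rik, D5Ertd605e, Gm11958, Gm15989 and Nol4 followed, with smallest percentiles of 38.3 to 45.6, and none of these 10 held CAGGTG. The region near Gm11958 lay 32700 bp from Lif, the nearest protein-coding gene, which encodes a cytokine.

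Whether the chromatin around the members separated the populations as well was tested on neighbouring regions within 10 kb, members left out. The call index, the share of such neighbours with a peak divided by the share of all non-member regions with one, was 1.13 ± 0.051 (SD, n = 4) in luminal and 1.07 ± 0.086 (SD, n = 4) in basal-like libraries around the luminal regions (877 neighbours, exact permutation p = 0.31). Around the basal-like regions (576 neighbours) it was 1.22 ± 0.20 and 1.23 ± 0.12 (SD, n = 4 each, exact permutation p = 0.97). Neighbours called in all 8 libraries, 56 and 48 in number, were compared by the mean score percentile minus that of all such regions. It was 0.54 ± 1.96 in luminal and 1.93 ± 1.93 in basal-like libraries near the luminal regions, and -3.79 ± 1.497 and -2.65 ± 1.80 near the basal-like regions (SD, n = 4 each, exact permutation p = 0.37 for both). None of the 4 tests passed, with Benjamini-Hochberg adjusted p from 0.50 to 0.97, and the groups overlapped in each. With BM3 left out, the differences in call index, luminal minus basal-like, were 0.056 around luminal and -0.10 around basal-like regions and those in score -0.35 and -1.84, and none passed (exact permutation p from 0.23 to 0.97).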

How the data were processed

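Chromatin was tagged with the Tn5 transposase in nuclei of 8 samples. Per the labels and the methods of the study, the authors trimmed the reads with cutadapt, aligned them to mm10 with Bowtie 1.0.0, removed duplicates with Picard 2.3.0 and mitochondrial reads, kept short fragments, called peaks with MACS2 in each library on its own and removed blacklisted regions. The deposited lists give each peak's position and a score, a whole number of at least 13, which was taken as the score of the peak caller. It is not normalized between libraries, so scores were used only as percentiles within a library. The MACS2 version differs between the labels (2.1.1.20160309) and the methods (2.0.10.20131216). Read depth is not given with the lists, so the number of peaks stood in for it, and no limit on absence of a peak can be set.

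Peaks of all libraries were merged where they touched or overlapped, and a library counted when a peak covered at least 1 bp of a region. The nearest TSS and features came from GENCODE M21 and sequences from RefSeq's GRCm38.p6, whose chromosome lengths held all peaks. Motifs were searched on both strands in the central 200 bp. Intervals of shares are 95% exact (Clopper-Pearson) intervals over regions and cover counting error only. Libraries were compared by two-sided exact permutation tests (scipy 1.17.1), and the functions were tested on simulated peak lists. The rule and the lists of genes and motifs were chosen with earlier results of these data known, so counts and shares that the rule fixes carry no test. Named were the 10 regions per kind with the highest smallest percentile, the 5 genes with most regions and listed genes nearest to a member, except 1 luminal region that is counted but not reported here on its own. Others were chosen after their values were seen, as the text says for each group: the promoter genes of polarity, adhesion and matrix were chosen in this way too. Alternatives were stricter peaks, equal peak numbers, more overlap, autosomes, wider absence, other TSSs and neighbour distances, and leaving out each library.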

Additional observations from a re-analysis of the deposited data

Results flagged for a closer look

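Within the 4 luminal libraries, BM3 stood far from the others in the call index of neighbours of the basal-like regions, at 1.51 where BM1, BM5 and BM7 lay between 1.09 and 1.14. Its gap to the next library took 0.878 of the range of the 4, above Dixon's critical value for 4 samples. BM3 had the fewest peaks, 14753, and the highest share of regions within 1 kb of a TSS, 56.0% against 23.8 to 32.8% in the others. The part of either in the index was not tested. Within the 4 basal-like libraries, BM2 had a peak near 16 of 24 basal marker genes where each of the other 3 had 14. For continuous values with a normal spread, such a gap is expected in about 1 in 20 groups of 4 by chance. This rate does not hold for the marker counts, where the other 3 libraries were tied at 14.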

How the results depend on the processing

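Of 180 repeats of the main results, 124 stayed the same, 38 moved and 18 changed direction. The same meant a share or ratio within its 95% exact interval or a count within 1.5-fold. For a permutation test it meant a p on the same side of 0.05. A changed direction meant a difference of opposite sign or a ratio on the other side of 1. The shares with CAGGTG kept within their intervals except that leaving out single libraries gave luminal shares down to 33.6%. With 1 library left out they ran from 33.6 to 45.1% of luminal regions. For basal-like regions they ran from 5.36 to 8.94%, within the interval. Numbers of regions rose because fewer libraries had to meet the rule, to 332 to 2140 luminal and 168 to 987 basal-like regions with 1 library left out. Requiring BM3 left 13 luminal regions, 46.2% of them at promoters, and peaks above the median score left 78 basal-like regions. Promoter shares of luminal and basal-like regions were 30.8% and 11.5% with peaks above the median score, 14.4% and 13.4% with no peak of the other population within 500 bp and 38.6% and 42.2% within 5 kb of a TSS, and 17.2 to 23.3% and 16.5 to 24.1% with 1 library left out. The share with a BM3 peak was 7.02% with equal peak numbers and 1.31 to 7.46% with 1 library left out. The ratio of same to opposite order of WT luminal regions was 3.70 with peaks above the median score, 4.67 with equal peak numbers and 1.51 to 3.53 with 1 library left out. For WT basal-like regions the last range was 0.922 to 2.20, and no ratio exists without BM7. By the nearest protein-coding TSS, 194 luminal and 101 basal-like regions kept their gene.

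None of the neighbour differences passed in any setting (exact permutation p from 0.057 to 1), and their signs were not stable. Those in score, luminal minus basal-like, near luminal regions turned to 0.27 with peaks above the median score, 1.32 with equal peak numbers, 0.58 within 50 kb and 0.26 from 1 to 10 kb, and ranged from -1.18 to 0.20 with 1 library left out. Near basal-like regions they turned to 0.67 and 0.85 with stricter and equal peaks and ranged from -1.91 to 0.17. The call index near basal-like regions turned to 0.086, 0.012 and 0.032 with stricter peaks, equal peaks and neighbours from 1 to 10 kb, and ranged from -0.10 to 0.023. The CAGGTG difference between libraries ranged from 3.45 to 5.58 percentage points with exact permutation p from 0.029 to 0.14. Cases chosen after seeing the data are the repeats of the CAGGTG results other than searching the whole region and peaks above the median score. The cause of these shifts was not tested. No paired analysis was possible because the labels give no replicate numbers and those used here only name the libraries.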
